A study of Mus musculus with 2 samples.

Results

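A stretch of mouse chromosome 17 that carries a cluster of zinc finger genes was examined in WT and G34R embryonic stem (ES) cells. Its members were the 88 of 26127 gene probes that start in this stretch, from Fpr1, which starts at 18013435, to Zfp213, which starts at 23693736 (mm9). The window was chosen because earlier results of the same WT and G34R libraries had shown lower levels of Zfp51, Zfp52, Zfp53, Zfp229, Zfp758 and Zfp947 in G34R cells. The ratios below are therefore a description of the values that led to the choice, and no test was made on them.

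The samples were 2 mouse ES cell lines of strain 129S1/SvImJ, both under 20 passages and grown in serum with leukemia inhibitory factor. WT cells carry unmodified H3f3a and H3f3b, the genes for histone H3.3. G34R cells carry 1 H3f3a allele in which glycine 34 is replaced by arginine, expressed from the endogenous promoter after gene targeting and Cre excision, beside a WT H3f3a allele and unmodified H3f3b. The G34R sample is a single targeted line, so the mutation and any other difference between the lines cannot be told apart. Each line gave 1 stranded total RNA library, for which 500 ng of RNA was amplified over 12 cycles and sequenced from a single end to 50 bp. The deposited unit is RPKM, read counts divided by transcript length and by library size, so levels are given per length throughout.

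H3f3a itself, the targeted gene, was at 8.17 RPKM in WT and 4.89 RPKM in G34R cells, and RPKM does not separate its WT and G34R alleles. The depth, estimated from the steps between the lowest RPKM values, was 88.0 M reads in WT and 72.3 M reads in G34R cells. One read on a 1 kb transcript was thus worth 0.0114 and 0.0138 RPKM. All 10 ES cell markers were detected, of which 6 were lower and 4 were higher in G34R cells (median log2 ratio -0.03). The fibroblast markers Dcn, Lum and Postn were listed at 0 in both libraries, and the sum of the 8 fibroblast markers was 1.82 RPKM in WT and 1.14 RPKM in G34R cells. Most of this sum was Thy1 (1.18 and 0.71 RPKM). Fbn1 (0.34 and 0.20 RPKM) was the other fibroblast marker to reach 0.25 RPKM in either library. The 6 primitive endoderm markers were all higher in G34R cells, with a sum of 2.07 RPKM in WT and 4.55 RPKM in G34R cells. The sum of the 5 trophoblast markers was 0.79 and 2.22 RPKM, with Elf5 listed at 0 in WT cells. Most of this sum was Eomes (0.43 and 1.88 RPKM), the only 1 of the 5 to reach 0.25 RPKM in either library. Krt7 was lower in G34R cells (0.23 and 0.07 RPKM). The sum of the 4 neural markers found was 37.1 and 27.66 RPKM, in which Tubb3 was at 35.58 and 8.36 RPKM and Olig2 at 0.03 and 17.71 RPKM. Among the ES cell markers, Nanog (127.07 and 52.24 RPKM) and Zfp42 (180.3 and 16.4 RPKM), the latter itself a zinc finger gene on another chromosome, were more than 2-fold lower in G34R cells, while Klf4 (25.14 and 43.71 RPKM) and Utf1 (61.89 and 108.56 RPKM) were higher. The part of these differences in the ratios of the cluster was not tested.

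C2H2 zinc fingers are short protein units in which pairs of cysteines and histidines hold a zinc ion, and arrays of them read DNA sequence. In many mammalian proteins such an array follows a KRAB domain, which recruits the corepressor TRIM28 and, through it, the H3K9 methyltransferase SETDB1, best known for silencing retrotransposons in ES cells. These genes arose by tandem duplication, lie in clusters of close copies, and often carry H3K9me3 over the exons that encode the fingers.

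The window held 23 zinc finger genes, 42 vomeronasal receptors, 7 formyl peptide receptors, 15 predicted loci and 1 named neighbour, Ppp2r1a. Of the 23 zinc finger members, 19 were recognised by name and 4 by their C2H2 motifs alone: 3110052M02Rik (Zfp983 in RefSeq), 2210404O09Rik (Zfp995), Gm10509 and Gm10226. In the translated coding sequences, 21 of the 23 had between 5 and 19 fingers (median 12 over all 23), and Gm10509 and Gm10226 were fragments with 3 fingers in 85 residues. A sequence typical of the KRAB A box, phenylalanine, any 2 residues, then 2 glutamates and tryptophan, was present in 18 of the 23 (78.3%). Elsewhere in the genome there were 661 zinc finger probes, and among the 659 of them with a coding sequence the share was 28.5%.

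The coding sequence of the first finger is shown for the 3 zinc finger members with the largest decrease among those with more than 3 fingers (Zfp947, Zfp229 and Zfp758) and for the members with the highest ratios (Zfp942 and Zfp213). Each is 84 bases, 5′ to 3′ on the coding strand, from the mm9 genome. Capitals mark the codons of the cysteines and histidines that bind zinc. The coordinates are chr17:22283023-22283106 (minus strand) for Zfp947, chr17:21882532-21882615 (plus strand) for Zfp229, chr17:22512216-22512299 (plus strand) for Zfp758, chr17:22065978-22066061 (minus strand) for Zfp942 and chr17:23694969-23695052 (minus strand) for Zfp213, all within coding exons.
Zfp947: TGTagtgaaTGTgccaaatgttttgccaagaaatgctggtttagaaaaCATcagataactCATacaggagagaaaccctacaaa
Zfp229: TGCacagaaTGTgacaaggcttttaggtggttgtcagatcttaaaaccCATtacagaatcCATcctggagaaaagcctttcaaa
Zfp758: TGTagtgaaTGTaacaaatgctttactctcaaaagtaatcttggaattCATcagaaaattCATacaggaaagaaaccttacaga
Zfp942: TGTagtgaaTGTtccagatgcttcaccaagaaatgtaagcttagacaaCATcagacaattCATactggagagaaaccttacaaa
Zfp213: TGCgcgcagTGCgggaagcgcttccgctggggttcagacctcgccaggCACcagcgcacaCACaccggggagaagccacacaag
The spacing of the 4 marked codons was the same in all 5, while the bases between them differed.

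Most of the members detected in ES cells were zinc finger genes. A member counted as detected at 0.25 RPKM or more in at least 1 library, and 28 of the 88 passed. All 23 zinc finger genes passed, together with Ppp2r1a, Gm7535, Gm5145, Gm9805 and Gm16386. Zfp677 passed through its WT level alone (0.38 RPKM against 0.21 RPKM in G34R cells), so that the filter favoured a lower value there. Of the 60 members under the filter, 55 were listed at 0 in both libraries, and the highest value among the 60 was 0.09 RPKM. These 55 included all 7 formyl peptide receptors, which are chemosensory and immune receptors, and 41 of the 42 vomeronasal receptors, which are expressed in sensory neurons of the vomeronasal organ. Vmn2r103, the other one, was at 0.02 RPKM in WT cells and listed at 0 in G34R cells.

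The zinc finger members were expressed at low levels in both lines. In WT cells they ranged from 0.35 RPKM (3110052M02Rik) to 10.05 RPKM (Zfp229), with a median of 1.86 RPKM. In G34R cells they ranged from 0.21 RPKM (Zfp677) to 3.39 RPKM (Zfp213), with a median of 1.39 RPKM. Their summed level was 48.96 RPKM in WT and 31.28 RPKM in G34R cells. In the plot of the level of each gene, most pairs of points lie with G34R to the left of WT.

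**Figure D1:**
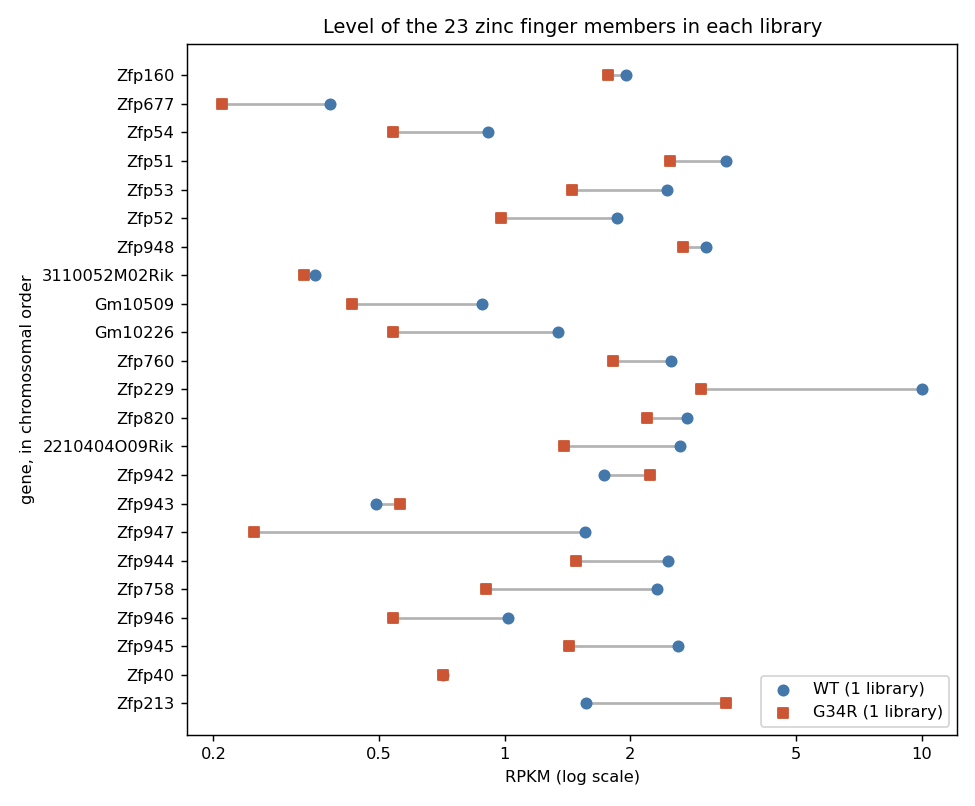
RPKM (log scale) of the 23 zinc finger members in the WT library (circles) and the G34R library (squares), in chromosomal order, with 1 library per cell line and no error bar. The G34R value is the lower one in 19 genes, the higher one in Zfp942, Zfp943 and Zfp213, and equal in Zfp40, where the square covers the circle.

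Of the 23 zinc finger members, 19 were lower in G34R cells, 3 were higher (Zfp942, Zfp943 and Zfp213) and Zfp40 was equal, where 55% of all 13366 detected probes of the genome were lower and 44.5% were higher. The median log2 (G34R/WT RPKM) was -0.75, a 1.69-fold lower level, with a middle range from -0.92 to -0.16 and extremes of -2.64 and 1.11. More than 2-fold lower were 5 of the 23 (21.7%), Zfp947, Zfp229, Zfp758, Gm10226 and Gm10509, where 9.64% of all detected probes passed this limit. More than 2-fold higher was 1 of the 23 (4.35%), Zfp213, where 5.79% of all detected probes passed. As the window was chosen on this contrast, nothing is read from these shares. Gm10509 was past the limit only narrowly, at -1.03, and 4 members were past it when both libraries were scaled to the same RPKM sum (Gm10509 at -0.99) or centred on the median ratio (-0.98). Between -1 and -0.7 on the log2 scale lay 8 of the 23, and 5.19% of all detected probes. With 1.5-fold as the limit 13 were lower (18.1% of all detected probes), and with 3-fold 2 were (5.39% of all).

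Intervals of 95% were calculated for each ratio from the estimated reads (exact binomial, Clopper-Pearson) and cover counting error only, not the variation between cultures. By this measure, the ratio lay wholly below 0 in 16 of the 23 zinc finger members, wholly above 0 in Zfp942 and Zfp213, and held 0 in 5. Among 13340 detected probes with an interval, it lay wholly below 0 in 43.9% and wholly above 0 in 33.7%. Counting error was small for most genes and wide for the short fragments Gm10509 and Gm10226, as the plot of the ratios shows.

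**Figure D2:**
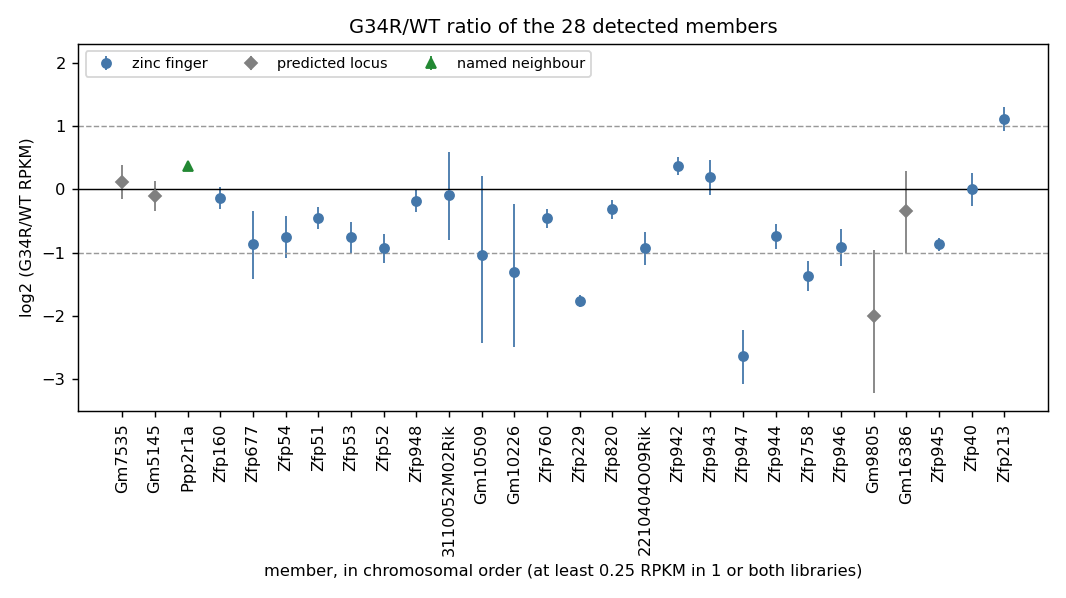
Log2 (G34R/WT RPKM) of the 28 detected members in chromosomal order, by class, where bars are 95% counting intervals from estimated reads and dashed lines mark 2-fold. Zfp947 (-2.64) and Zfp229 (-1.76) are the lowest zinc finger genes, Zfp213 (1.11) at the far end is the highest, and the named neighbour Ppp2r1a is at 0.37.

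Zfp947 had the lowest ratio of the detected members. It encodes 9 fingers with the KRAB residues and lies on the minus strand at chr17:22281326-22303157. Its level was 1.56 RPKM in WT and 0.25 RPKM in G34R cells, from about 394 and 52 reads, and the log2 ratio was -2.64 (95% interval -3.08 to -2.22). In 35.7% of its exonic 50-base stretches, the length of a read, the same sequence occurs elsewhere in mm9. Here and below, elsewhere means any other site, and copies within the same gene were not set apart from copies outside it. Reads from stretches copied outside the gene cannot be placed with certainty, so the ratio of Zfp947 may be uncertain beyond its interval.

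Zfp229 was the most highly expressed zinc finger member in WT cells and is almost free of this doubt, with 0.14% of its 50-base stretches found elsewhere. It encodes 16 fingers with the KRAB residues and lies on the plus strand at chr17:21870691-21885935. The level of Zfp229 was 10.05 RPKM in WT and 2.96 RPKM in G34R cells (about 4002 and 968 reads), a log2 ratio of -1.76 (-1.87 to -1.66). This was the most precise of the decreases past 2-fold.

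Zfp758, with 12 fingers and the KRAB residues, lies on the plus strand at chr17:22498420-22514248. It was at 2.32 RPKM in WT and 0.90 RPKM in G34R cells (log2 -1.37, interval -1.60 to -1.13), and 7.60% of its stretches were shared. The other members past 2-fold were the neighbouring fragments Gm10226 (1.34 and 0.54 RPKM) and Gm10509 (0.88 and 0.43 RPKM). They rested on about 30 and 10 reads for Gm10226 and 20 and 8 reads for Gm10509, and the interval of Gm10509 (-2.43 to 0.21) holds 0. In these fragments 52.9% and 44.8% of the stretches occur elsewhere. Without them, 3 zinc finger members were more than 2-fold lower.

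Zfp54, Zfp51, Zfp53 and Zfp52 follow each other in this order on the plus strand, all with the KRAB residues. Among them lie the minus-strand loci Gm17372 and 9330136K24Rik, which were not detected. Zfp51, with 19 fingers the longest array in the window, was at 3.40 RPKM in WT and 2.49 RPKM in G34R cells (log2 -0.45, interval -0.62 to -0.28). Zfp53 was at 2.45 and 1.45 RPKM (-0.76, -1.01 to -0.51). Zfp52 was at 1.86 and 0.98 RPKM (-0.92, -1.16 to -0.70). All 3 of these genes, which were among those used to choose the window, were lower without reaching 2-fold. Zfp54, which was not named in that choice, was at 0.91 and 0.54 RPKM (-0.75, -1.09 to -0.41). The proteins of Zfp51 and Zfp53 are 75.5% identical, and less than 5% of the stretches of each of the 4 genes occur elsewhere.

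Among the remaining members with lower values, Zfp945 had one of the narrowest intervals, with 2.61 RPKM in WT and 1.43 RPKM in G34R cells (log2 -0.87, -0.97 to -0.76). Zfp946 was at 1.02 and 0.54 RPKM (-0.92), and 2210404O09Rik was at 2.64 and 1.39 RPKM (-0.93). Zfp944 was at 2.47 and 1.48 RPKM (-0.74). These 4 genes, like Zfp51 to Zfp54, encode the KRAB residues, with 18 fingers in Zfp945, 11 in Zfp946 and Zfp944 and 9 in 2210404O09Rik. Smaller decreases were seen for Zfp760 (2.50 and 1.82 RPKM, -0.46), Zfp820 (2.73 and 2.20 RPKM, -0.31) and Zfp948 (3.04 and 2.68 RPKM, -0.18). For Zfp160 (1.95 and 1.77 RPKM, -0.14) the interval held 0, so that no difference was detectable at this depth. The same was true of 3110052M02Rik (0.35 and 0.33 RPKM, -0.08), Zfp943 (0.49 and 0.56 RPKM, 0.19), and Zfp40, at 0.71 RPKM in both libraries.

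Zfp213 was the exception in the other direction. It was at 1.57 RPKM in WT and 3.39 RPKM in G34R cells (log2 1.11, interval 0.93 to 1.30), on about 369 and 655 reads. Zfp213 is the last zinc finger member of the window, at chr17:23693736-23701193 on the minus strand. Its coding sequence holds 5 fingers, the fewest among the 21 members other than the 3-finger fragments. It lacks the KRAB residues as spelled above, as do Zfp948, Zfp943, Gm10509 and Gm10226, of which only Zfp943 was higher. The encoded protein is 33.0% identical to that of Zfp945, the lowest identity of any pair compared. None of the stretches of Zfp213 occur elsewhere in mm9. The predicted locus Gm17633, on the opposite strand within the span of Zfp213, was at 0.02 RPKM in WT and 0.09 RPKM in G34R cells, and the counting was strand-specific. Zfp942 was at 1.73 and 2.23 RPKM (0.37, 0.22 to 0.51), and it has 11 fingers and the KRAB residues.

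Zfp942 and Zfp943 form one of 2 head-to-head pairs in the window. In such a pair, genes on opposite strands start within 1000 bp of each other and do not overlap. Zfp52 and 9330136K24Rik, whose spans overlap at their starts, were thus not counted. The other pair is Zfp944 and Zfp758. The Zfp942 and Zfp943 starts are separated by 87 bases and the Zfp944 and Zfp758 starts by 52 bases. The bases between the starts are shown because they are related in sequence while Zfp942 was higher and Zfp944 and Zfp758 were lower in G34R cells. Both are given 5′ to 3′ on the plus strand of mm9, chr17:22099432-22099518 for the first and chr17:22498368-22498419 for the second, and capitals mark each CG.
Zfp942/Zfp943: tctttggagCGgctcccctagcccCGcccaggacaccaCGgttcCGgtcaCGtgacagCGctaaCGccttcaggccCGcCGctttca
Zfp944/Zfp758: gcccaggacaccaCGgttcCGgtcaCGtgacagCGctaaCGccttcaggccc
All 52 bases between Zfp944 and Zfp758 occur unchanged within the 87 bases between Zfp942 and Zfp943, at chr17:22099457-22099508. These are the only 2 exact copies in mm9. Within 500 bp of a start, 40 or more of the 52 bases matched at 4 of 26114 probes, which are these 4 genes, and the closest other zinc finger members of the window, Zfp51 and Zfp947, matched 30.

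In the first pair, the log2 ratio was 0.37 for Zfp942 (interval 0.22 to 0.51) and 0.19 for Zfp943, where the interval of -0.08 to 0.47 held 0. In the second pair both genes were lower, with -0.74 for Zfp944 (-0.94 to -0.54) and -1.37 for Zfp758. The counting intervals of the first pair did not overlap those of the second. The encoded proteins of Zfp942 and Zfp944 are 79.8% identical. Of their 50-base stretches, 9.77% and 11.8% occur elsewhere in mm9, so that some of their reads may not be placed with certainty. The 87 bases hold 9 CG and the 52 bases hold 5 CG. At least 1 CG was present in 80.1% and 72.5% of windows of these lengths before the 26111 probe starts tested, and as many in 21.2% and 27.7%. The letters CACGTG, searched on both strands because they read the same on each, occur once in each gap and in 1.97% of 52-base windows before probe starts. Across the genome, 714 head-to-head pairs within 1000 bp and without overlap had both genes detected, and 58.0% of them had ratios of the same sign.

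The zinc finger genes of the window are related in sequence, some of them closely, which bears on how their reads can be placed. Among the 21 longer proteins, the identity of the 210 pairs ranged from 33.0% to 90.4%, with a median of 55.0%. The closest pair was 2210404O09Rik and Zfp947 at 90.4%, whose log2 ratios were -0.93 and -2.64. Both were lower in G34R cells, but to different extents. Of their 50-base stretches, 26.2% and 35.7% occur elsewhere in mm9, and how many of these lie in the other gene was not counted. The primary alignments used by the authors may place a read from such a stretch at any of its sites.

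The 12 zinc finger members with under 5% of shared stretches had a median log2 ratio of -0.45, and 9 of them were lower. The 11 with 5% or more had a median of -0.92, and 10 were lower. Only Zfp229 was more than 2-fold lower in the first set (8.33%), and 4 were in the second (36.4%). Those 4 include the fragments Gm10226 and Gm10509, which rested on few reads. Of all detected probes, 55% were lower and 9.64% were more than 2-fold lower. The part of read placement in this was not tested. The plot of shared sequence against ratio shows both sets.

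**Figure D3:**
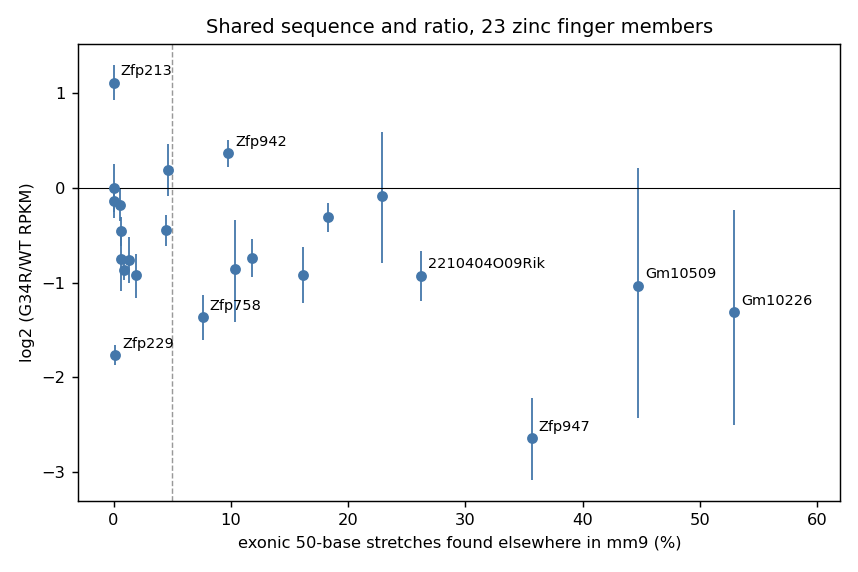
Share of exonic 50-base stretches that occur elsewhere in mm9 (%, horizontal axis) and log2 (G34R/WT RPKM) of the 23 zinc finger members, with 95% counting intervals and a dashed line at 5%. Copies within the same gene also count as elsewhere. Zfp229 lies low at the left edge with 0.14% shared, and Zfp947 (35.7%), Gm10509 (44.8%) and Gm10226 (52.9%) lie to the right.

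Strand and structure were compared as descriptions, beside a share of 55% lower among all detected probes. On the plus strand, 14 of 15 zinc finger members were lower (median -0.76), and on the minus strand 5 of 8 (median -0.53). With the KRAB residues, 16 of 18 were lower (median -0.75), with Zfp942 higher and Zfp40 equal. Without them, Zfp948, Gm10509 and Gm10226 were lower, Zfp943 and Zfp213 were higher, and the median of the 5 was -0.18.

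The 65 members not classed as zinc finger genes served as neighbours of the same interval. They include Gm9805 and Gm9772, which hold 1 and 2 C2H2 motifs, fewer than the 3 required for the class. Ppp2r1a, the scaffold subunit of protein phosphatase 2A, was at 41.95 RPKM in WT and 54.05 RPKM in G34R cells (log2 0.37, 0.33 to 0.40). It lies immediately before Zfp160 among the detected members and was the most highly expressed gene of the window. The predicted locus Gm7535 was at 3.02 and 3.28 RPKM, and Gm5145 was at 4.69 and 4.37 RPKM. Gm16386 was at 0.43 and 0.34 RPKM. Their 3 intervals held 0. Gm9805, a 171 bp locus with 1 C2H2 motif, was at 2.92 and 0.73 RPKM (log2 -2.00, -3.23 to -0.95) on about 44 and 9 reads. Thus 1 of the 5 detected neighbours was more than 2-fold lower and none was more than 2-fold higher, with a median of -0.10 over the 5. Of all detected probes, 9.64% were more than 2-fold lower and 5.79% more than 2-fold higher. Gm7535, Gm5145 and Gm16386 are pseudogenes in RefSeq, and 10.7%, 27.8% and 3.76% of their read-length stretches occur elsewhere in the genome. Ppp2r1a was the only named gene among the 5, so their median says little about ordinary neighbouring genes.

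At the edges of the window, the 3 first members, Fpr1, Fpr2 and Fpr3, were listed at 0. Just before them lay Vmn2r90 (0.03 RPKM in WT and 0 in G34R cells), Ncrna00085 (0.67 and 0.52 RPKM) and Has1 (0.06 and 0 RPKM). The last 3 members were Gm5146, listed at 0, Gm17633 and Zfp213. Just beyond were Zfp13 (5.66 and 7.05 RPKM, log2 0.32), Zscan10 (26.27 and 17.27 RPKM, -0.61) and Mmp25 (0.34 and 0.15 RPKM). The end of the window thus cut between Zfp213 and Zfp13, both zinc finger genes with higher values in G34R cells. In a window widened on both sides, 27 zinc finger genes were detected and 22 were lower, where 55% of all detected probes were lower. The 22 lower genes included Zfp960 (13.69 and 6.43 RPKM, -1.09) and Zfp97 (13.20 and 6.26 RPKM, -1.08).

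The cluster was set beside other zinc finger genes and beside its chromosome, without a test. The 563 detected zinc finger probes outside the window had a median log2 ratio of -0.22, with 61.5% lower, 13.5% more than 2-fold lower and 2.66% more than 2-fold higher. Outside probes with the KRAB residues (177 detected) had a median of -0.58, with 78.0% lower and 24.3% more than 2-fold lower. Those with a coding sequence that lacks them (385 detected) had a median of -0.06, with 8.57% more than 2-fold lower. The zinc finger members on chromosome 17 had a median of -0.75 with 82.6% lower. As they were chosen as lower in these libraries, and the outside genes include other clusters described next, no likeness is drawn from these values, which the plot of the distributions shows.

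**Figure D4:**
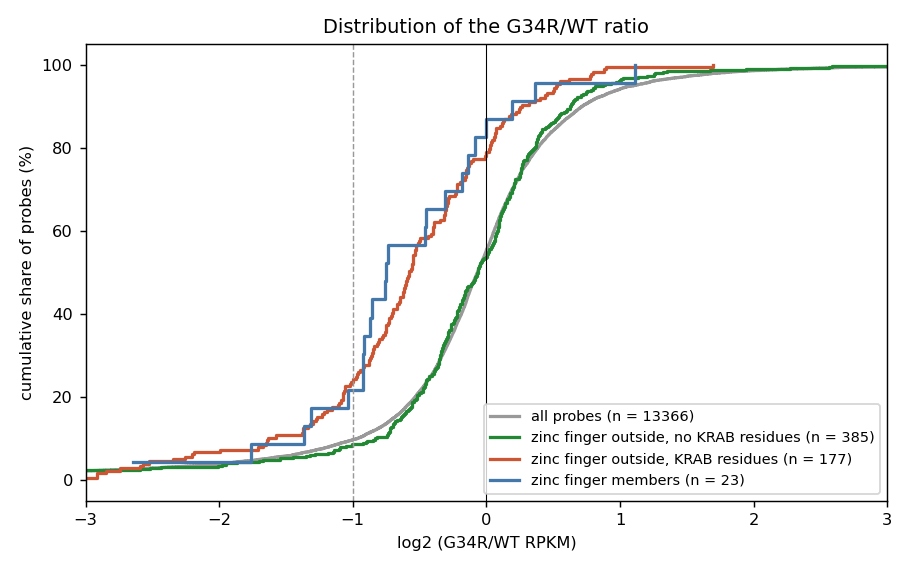
Cumulative share of detected probes (%) against log2 (G34R/WT RPKM) for the zinc finger members, zinc finger probes outside the window with and without the KRAB residues, and all 13366 detected probes, with the axis cut at -3 and 3. The medians are -0.75 for the members, which were chosen on this contrast, -0.58 for outside probes with the KRAB residues, -0.06 for those without and -0.07 for all detected probes.

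The rest of chromosome 17 had a median of 0.01 over 670 detected probes, and all detected probes had a median of -0.07. Among other zinc finger clusters, the median was -0.70 on distal chromosome 2 (29 of 29 detected lower, 7 more than 2-fold lower). The median on distal chromosome 4 was -1.69 (17 of 18 lower, 14 more than 2-fold). On chromosome 13 it was -0.45 (21 of 35 lower, 8 more than 2-fold). Among all detected probes, 55% were lower and 9.64% more than 2-fold lower. These clusters were chosen with earlier results of the same 2 libraries known, so no likeness to the window is drawn from their values. Being measured in the same libraries, the values are also not independent of each other. Zinc finger clusters elsewhere in the genome were not summarised separately.

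A list of 19 genes held corepressors linked to KRAB zinc finger proteins and general chromatin factors such as Dnmt1, Uhrf1, Atrx and Daxx. Of these genes, 18 were found as 19 probes. All were detected, 10 were lower, 9 were higher, and the median log2 ratio was -0.05. Of all detected probes, 55% were lower and 44.5% higher, with 9.64% more than 2-fold lower and 5.79% more than 2-fold higher. Trim28, the corepressor bound by KRAB domains, was at 326.77 RPKM in WT and 222.49 RPKM in G34R cells (-0.55). Setdb1, the H3K9 methyltransferase, was at 15.06 and 15.25 RPKM (0.02). No probe of the list was more than 2-fold lower, and the lowest was Smarcad1, a chromatin remodeller that binds TRIM28, at 22.75 and 12.07 RPKM (-0.91). The only one more than 2-fold higher was Dnmt1, the maintenance DNA methyltransferase, at 8.14 and 44.43 RPKM (2.45). Its part in the ratios of the cluster was not tested.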

How the data were processed

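The data were RNA-seq libraries of WT and G34R ES cells, 1 of each. Stranded 50 bp reads had been aligned to mm9 by the authors with STAR (v2.4.2a). Seqmonk then counted primary alignments over merged isoforms with a correction for length, and the authors deposited the resulting RPKM of each gene probe. Reads shared by gene copies may lie at either copy. For log2 (G34R/WT RPKM), values below 0.01 RPKM were raised to 0.01. Probes needed 0.25 RPKM in at least 1 library to be counted as detected. With 1 library per line no test and no p-value could be given.

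Depth was estimated as the total at which low RPKM values (fewer than 6 reads) of genes with a single exon shorter than 800 bp equal whole reads within rounding to 2 decimals (100% of 76 and 68 values). Reads per gene follow from RPKM, exon length and depth. The ratio step and depth estimate were tested on simulated data. All 88 members and 26055 of 26127 probes matched a GENCODE M1 gene. Zinc finger members were named Zfp, Zscan, Zkscan, Zbtb or Znf, or held 3 or more C2H2 motifs (cysteine, 2 to 4 residues, cysteine, 12 residues, histidine, 3 to 5 residues, histidine). RefSeq proteins had been intended for this, and translated GENCODE M1 coding transcripts were used instead. Exonic 50-base stretches were searched on both strands of mm9.

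The members and lists were chosen with earlier results of these data known. Named genes were the 6 that led to the choice, zinc finger members with at least 1 RPKM and up to 12 such other members. Members past 2-fold, the 3 probes on each side of each edge and the listed corepressors and chromatin factors were also named. Other members were named after their values were seen. Alternatives were other floors, filters, scalings, windows, classes and fold limits. Leaving out Gm10509 and Gm10226 was chosen after seeing the data. Biopython 1.88, matplotlib 3.10.9, pandas 2.3.3, SciPy 1.17.1, NumPy 2.4.6 and Python 3.11.15 were used.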

Additional observations from a re-analysis of the deposited data

How the results depend on the processing

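No paired analysis was possible because each cell line had 1 library. The 5 zinc finger members more than 2-fold lower became 4 at 1 RPKM or more and under both other scalings. Of all probes, 6.42% were more than 2-fold lower at 1 RPKM or more. The share was 9.12% with the same RPKM sum and 9.16% when centred on the median. In the wider window they became 7 of 27. They became 2 with a pseudocount of 1 RPKM, where 2.66% of all probes were more than 2-fold lower. The count was 1 without members sharing 5% or more of their stretches. It was 3 with the class set by name alone and 3 without Gm10509 and Gm10226. Changes of the window, the class or the members left the share over all probes at 9.64%. At 1.5-fold 13 members were lower (18.1% of all probes), and at 3-fold 2 were (5.39%). The 1 member more than 2-fold higher became 0 with the pseudocount and 0 at 3-fold. Among other members, the 1 more than 2-fold lower became 5 in the wider window and 3 with the class set by name alone, and the 0 more than 2-fold higher became 2 without the filter and 4 in the wider window. The median of the zinc finger members stayed negative, between -0.76 and -0.33, in all alternatives run. That of the other members was 0.01 at 1 RPKM or more, 0 without the filter, 0.12 in the wider window, and -0.34 both without members sharing 5% or more and with the class set by name alone, against -0.10 as reported. With the pseudocount, 10 of 22 named genes moved beyond their counting interval, and none changed sign. Over all probes, the 1289 lower and 774 higher calls were among 13366 detected probes. Of the same 13366, 356 and 196 passed with the pseudocount, 2422 and 1780 at 1.5-fold, and 721 and 331 at 3-fold. Without the filter, 2877 and 1445 of 26127 passed, and at 1 RPKM or more 689 and 439 of 10728. The depth limits Gm10509, Gm10226 and Gm9805 most, and differences between cultures of 1 line could not be measured.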
